A study of Mus musculus with 54 samples.

Results

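Untreated and vehicle-treated 3T3-L1 preadipocytes were compared between an early and a later window of the first hours of a differentiation course: 3 and 5 h against 0.5 and 1 h. 3T3-L1 is an established mouse fibroblast-like line that becomes fat cells in culture. The comparison took every array of the untreated and DMSO arms at those times, 8 of the 54 arrays of the series, with 4 arrays in each window. The untreated arm was a control undergoing normal differentiation without vehicle or compound, and the DMSO arm received 0.5% DMSO, the solvent of the compound tested in the series. Each arm gave 1 array at each time, so the 2 times of a window stand in for replicates, and p-values measure only the spread between these arrays. A further arm, treated with 2 µM prieurianin, a plant limonoid, is given beside the controls with its 4 arrays of the same times, and the 4 control arrays of 0 and 0.25 h served as the starting level. The labels name neither separate cultures nor the moment at which a differentiation stimulus was added, and all cells came from a single commercial line without donors.

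Conversion of preadipocytes to fat cells begins with immediate early genes, which are transcribed within minutes of a stimulus because their regulators are already present, and which encode unstable transcription factors such as FOS and EGR proteins. A following wave of delayed early genes, including secreted factors, enzymes and ribosome assembly factors, needs newly made protein. Adipogenic factors such as C/EBPβ, KLF5 and EGR2 (Krox20) then lead to PPARγ and C/EBPα, while GATA2, GATA3, KLF2 and KLF7 are known to restrain the process.

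Levels are log2 intensities after quantile scaling, and the 4 values of a window are listed as untreated then DMSO, the earlier time first. A difference is the later window minus the earlier one on this log2 scale, with the standard error of a limma fit that kept the arm as a block. Adjusted p-values come from limma, with the Benjamini-Hochberg correction over 12792 tested genes, and "rose" or "fell" is used only for genes with an adjusted p under 0.05. Median intensity of the 8 deposited arrays was 142, 313, 131 and 120 in the early window and 91, 101.5, 113 and 118 in the later one. Before scaling, every later array was thus dimmer by its median than every early array. The untreated array of 1 h was the brightest. Correlations between arrays over all tested genes were 0.970 to 0.991 within the early window, 0.979 to 0.989 within the later one and 0.960 to 0.979 between them. Dlk1, which encodes the preadipocyte protein Pref-1, lay between 15.70 and 15.91 on the 8 arrays, near the top of the scale and saturated on 1 of them, and did not pass the test. Among markers of other cell types, none of 7 macrophage and leukocyte genes, 5 endothelial and epithelial genes and 4 skeletal muscle genes that were tested passed it. Of 6 bone and cartilage markers 1 rose (Alpl, 0.33 ± 0.10, adjusted p = 0.049), a call lost without any single array (adjusted p = 0.070 to 0.14). Of 12 mesenchymal and fibroblast markers 4 fell (33.3%, against 10.5% of all genes tested) and 1 rose. These falls numbered 2 with median centring or in a fit to all 54 arrays. Keratin genes outside these lists, among them Krt16 and Krt13 (1.98 ± 0.23), rose. Mean level of the macrophage and leukocyte list was 9.04 to 9.17 in the early window and 9.11 to 9.35 in the later one.

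Between the windows 1246 genes rose, 9.74% of those tested, and 1348 fell, 10.5% of those tested. The change exceeded 2-fold for 293 of the rises and 270 of the falls. All 4 later arrays lay above all 4 early ones for 1646 genes (12.9%) and below them for 1654 genes (12.9%). Every one of the 1246 rises and 1348 falls had the same sign in the untreated and the DMSO arm taken alone. The calls used these same arrays and averaged both arms, so the shared sign follows largely from the call and is no separate check. The split of calls moved with the scaling: rises made up 48.0% of calls after quantile scaling, 63.9% after median centring (1010 rises, 571 falls) and 6.75% in the values as deposited (214 rises, 2956 falls), where the median difference of all genes was -0.50. After quantile scaling that median was -0.03, and directions below are relative to it. Without the untreated array of 5 h the counts were 762 rises and 870 falls, and without the DMSO array of 0.5 h they were 811 and 793. Falls also dropped to 867 without the untreated array of 0.5 h, 861 without the DMSO array of 1 h and 885 without the DMSO array of 5 h. Leaving out the bright untreated array of 1 h gave 1167 rises and 1417 falls.

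**Figure D1:**
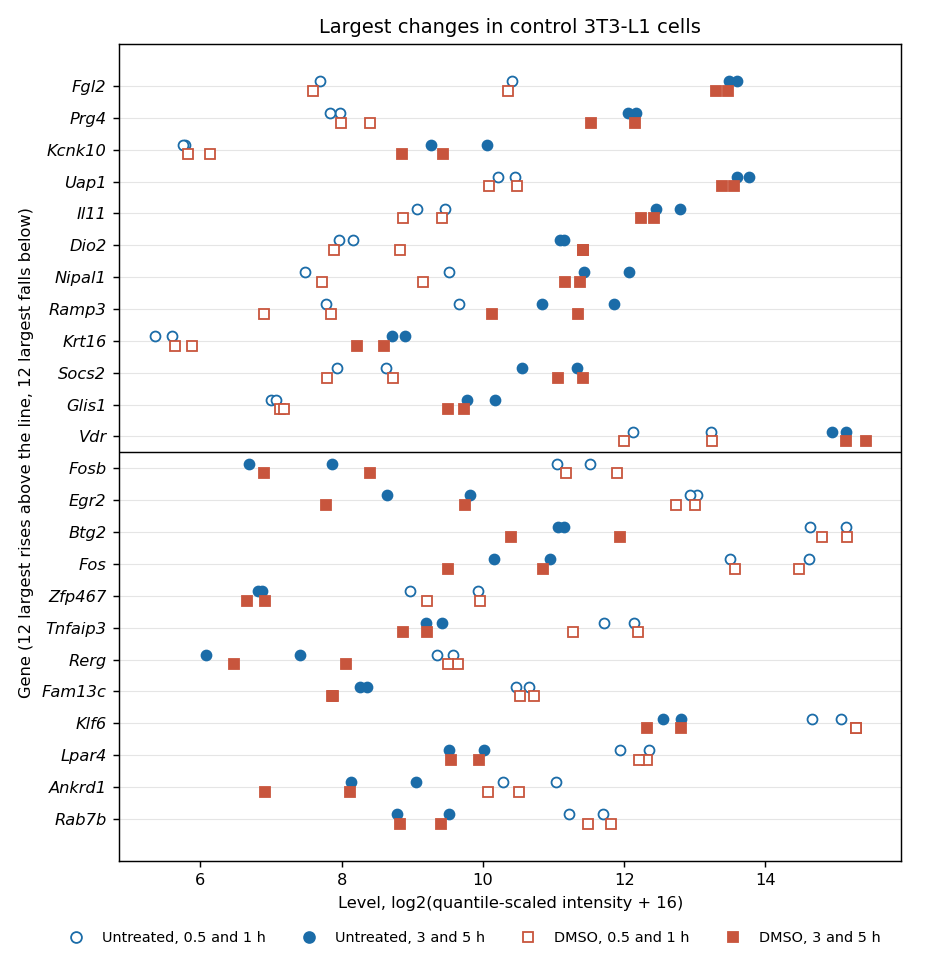
Levels (log2 of quantile-scaled intensity + 16, x axis) of the 12 largest rises and the 12 largest falls between windows in control 3T3-L1 cells, 1 row per gene; open symbols are 0.5 and 1 h, filled symbols 3 and 5 h, circles untreated and squares DMSO, 1 point per array. The genes were chosen for later arrays that all lie on one side of the early arrays; Fgl2 is spread most within the early window (7.60 to 10.41).

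The 12 largest rises included genes of secreted proteins (Fgl2, Il11, Prg4), a nuclear receptor (Vdr) and enzymes (Uap1, Dio2). Fgl2, which encodes a secreted fibrinogen-like protein, was at 7.69, 10.41, 7.60 and 10.36 in the early window and at 13.60, 13.49, 13.48 and 13.30 in the later one. Both 1 h arrays were already far above the 0.5 h arrays, and the windows did not overlap. The difference was 4.45 ± 0.68, or 21.9-fold (adjusted p = 0.0038). Il11, the gene of an interleukin-6 family cytokine, was at 9.07, 9.46, 8.87 and 9.42 and then at 12.79, 12.45, 12.42 and 12.23. Its 4 early arrays lay close together and all later arrays were above them. The rise was 3.27 ± 0.16, or 9.63-fold (adjusted p = 0.00013). Prg4, which encodes lubricin, a lubricating proteoglycan, was between 7.84 and 8.40 early and between 11.53 and 12.17 later (3.93 ± 0.19). Uap1, an enzyme that makes the sugar donor UDP-N-acetylglucosamine, went from 10.08 to 10.48 early to 13.39 to 13.77 later (3.27 ± 0.13).

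Vdr, the vitamin D receptor gene, was at 12.13, 13.22, 11.99 and 13.25 early and at 14.95, 15.14, 15.42 and 15.14 later, among the brightest of the large rises. Its 1 h arrays stood above its 0.5 h arrays in both arms, and the later arrays were above all of them (2.52 ± 0.31, adjusted p = 0.0016). Dio2, which encodes the deiodinase that activates thyroid hormone, was at 7.96, 8.17, 7.90 and 8.83 and then at 11.15, 11.09, 11.42 and 11.42. This was a rise of 3.06 ± 0.19, with no overlap (8.31-fold, adjusted p = 0.00017). The remaining genes of the 12 largest rises were Kcnk10 (a potassium channel, 3.53 ± 0.24), Nipal1 (a magnesium transporter, 3.04 ± 0.46), Ramp3 (a receptor-modifying protein, 3.00 ± 0.48), Krt16 (a keratin, 2.99 ± 0.18), Socs2 (a cytokine signalling suppressor, 2.82 ± 0.27) and Glis1 (a zinc finger transcription factor, 2.70 ± 0.15). With 3 h alone set against the early window, the Ramp3 call was lost (adjusted p = 0.053). Outside these 12, Gclc, the catalytic subunit of glutathione synthesis, rose by 2.35 ± 0.13, Sphk1, which makes sphingosine-1-phosphate, by 2.09 ± 0.32, and Pfkfb4, a regulator of glycolysis, by 1.96 ± 0.11.

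Promoters of 5 genes, picked as examples that hold a motif, are shown for the motifs counted below among large rises and large falls. For a gene with several starts, the first one holding the motif is shown. Each is the 250 bases before the annotated start, read 5′ to 3′ on the gene's strand from RefSeq (GRCm38.p6). Capitals mark AP-1 motifs (TGACTCA or TGAGTCA, the site of FOS and JUN dimers) in Il11 (chr7:4778142-4778391, minus strand) and Fgl2 (chr5:21372423-21372672, plus strand). In Dio2 (chr12:90739039-90739288, minus strand) they mark the cAMP response element TGACGTCA, bound by CREB family factors, and a TATA box (TATAAA). In Egr2 (chr10:67537316-67537565, plus strand, an internal start among several) and Zfp36 (chr7:28379229-28379478, minus strand) they mark a CArG box, the site of serum response factor.
Il11: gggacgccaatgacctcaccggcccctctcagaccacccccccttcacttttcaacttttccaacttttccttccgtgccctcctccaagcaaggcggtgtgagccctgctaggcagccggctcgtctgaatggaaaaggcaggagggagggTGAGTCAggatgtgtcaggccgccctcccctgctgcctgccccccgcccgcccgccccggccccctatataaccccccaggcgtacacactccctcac
Fgl2: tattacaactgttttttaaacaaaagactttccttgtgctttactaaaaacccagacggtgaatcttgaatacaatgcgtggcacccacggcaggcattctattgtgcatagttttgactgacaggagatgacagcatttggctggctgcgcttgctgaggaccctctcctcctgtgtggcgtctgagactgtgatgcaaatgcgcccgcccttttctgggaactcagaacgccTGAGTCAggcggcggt
Dio2: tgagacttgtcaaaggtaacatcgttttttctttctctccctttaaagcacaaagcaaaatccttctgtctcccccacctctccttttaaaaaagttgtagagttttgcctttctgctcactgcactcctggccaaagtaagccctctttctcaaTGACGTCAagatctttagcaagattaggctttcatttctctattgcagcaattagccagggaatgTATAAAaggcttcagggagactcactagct
Egr2: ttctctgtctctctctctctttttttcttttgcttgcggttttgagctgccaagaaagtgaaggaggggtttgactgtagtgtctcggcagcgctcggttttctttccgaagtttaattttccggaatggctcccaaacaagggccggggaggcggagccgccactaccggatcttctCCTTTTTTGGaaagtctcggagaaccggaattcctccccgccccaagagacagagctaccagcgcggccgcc
Zfp36: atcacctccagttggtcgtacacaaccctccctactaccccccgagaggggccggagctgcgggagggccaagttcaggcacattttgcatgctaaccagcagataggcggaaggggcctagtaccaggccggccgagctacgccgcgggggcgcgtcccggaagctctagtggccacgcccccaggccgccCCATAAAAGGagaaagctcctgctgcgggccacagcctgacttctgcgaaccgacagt

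The AP-1 motif began at position -98 from the start in Il11 and at -16 in Fgl2, the cAMP response element at -95 and the TATA box at -30 in Dio2, and the CArG box at -58 in Zfp36. Of the 50 largest rises, 37 had a promoter in the RefSeq table, and 8 of these (21.6%) held an AP-1 motif on either strand. The same motif was in 3 of the 41 largest falls with a promoter (7.32%) and in 4.49% of the 10278 tested genes that had one. CArG boxes were in none of those 37 rises, in 3 of the 41 falls (7.32%: Egr2, Zfp36 and Filip1l) and in 1.41% of tested genes. The cAMP response element was in 2 of the 37 rises (5.41%: Dio2 and Trmt61a), 3 of the 41 falls (7.32%) and 2.65% of tested genes. TATAAA was in 10.8% of the rises, 24.4% of the falls and 9.66% of tested genes. E-boxes (CACGTG, a site of MYC and of the clock factors) were in 13.5%, 17.1% and 9.38%. All motifs were searched on both strands and counted separately, so a promoter can count for more than 1 motif. A match describes letters in this window and not a bound site.

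Fosb, Egr2, Fos and Klf6, from the list of immediate early transcription factors, were among the 12 largest falls. Fos was at 14.62, 13.50, 14.48 and 13.57 in the early window and at 10.95, 10.15, 10.85 and 9.50 in the later one. In both arms it was highest at 0.5 h and lowest at 5 h, and it fell by 3.68 ± 0.39 on the log2 scale (12.8-fold, adjusted p = 0.00088). Fosb, its paralogue, was at 11.05, 11.51, 11.18 and 11.90 and then at 7.87, 6.68, 8.40 and 6.90 (a fall of 15.4-fold). Egr2 was between 12.73 and 13.03 early and between 7.78 and 9.82 later (15.2-fold lower, adjusted p = 0.00091). Egr1 was saturated on all 4 early arrays, which kept it out of the ranking of the 12 largest, and only a bound can be given: it was at least 13.9-fold lower in the later window, at 13.17 and 10.87 in untreated cells and 13.43 and 11.31 in DMSO. Zfp467, which fell by 2.71 ± 0.24, Tnfaip3, Klf6 and Ankrd1 also belonged to the 12 largest falls, with Rerg (a RAS-like GTPase, -2.51 ± 0.38), Fam13c (-2.50 ± 0.13), Lpar4 (a lysophosphatidic acid receptor, -2.45 ± 0.16) and Rab7b (a GTPase of vesicle transport, -2.42 ± 0.22).

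Of 22 tested immediate early transcription factors 7 fell (31.8%, against 10.5% of all genes) and 1 rose, and the median member differed by -0.39. The others that fell were Klf6 (by 2.46), Klf2 (by 1.94) and Junb (by 1.43). Fosl1, which encodes FRA-1, a later FOS family member, rose by 2.03 ± 0.26 to a mean of 14.56. Myc and Ier2 were among the 14 that did not pass the test. Myc was at 10.30, 11.11, 9.89 and 10.52 early and at 10.38, 10.30, 10.28 and 9.93 later, so the windows overlapped. Against the 0 to 0.25 h arrays it was 1.06 higher (adjusted p = 6.4e-05). The mean level of the 22 genes was 11.08 to 11.59 on the early arrays and 9.94 to 10.66 on the later ones.

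Some genes whose products end messages or signals were among the falls, while others rose. Zfp36, which encodes tristetraprolin, a protein that destabilises AU-rich mRNAs, was at 14.44, 12.85, 14.05 and 12.72 and then at 11.67, 10.82, 11.66 and 10.43. It was highest at 0.5 h in both arms and the windows did not overlap (a fall of 2.37 ± 0.46, adjusted p = 0.0090). With 3 h alone the Zfp36 call was lost (adjusted p = 0.096). Btg2, an anti-proliferative deadenylation factor, fell by 3.79 ± 0.30, and Zfp36l1 by 1.70 ± 0.20. These were the 3 falls among 11 tested mRNA decay genes (27.3%, against 10.5% of all genes). Of the 11, 2 rose (18.2%, against 9.74% of all genes), 6 differences were above 0 and the median was 0.27. Dual-specificity phosphatases, which switch MAP kinases off, went both ways: Dusp14 and Dusp4 rose by 1.66 and 1.47, Dusp16 fell by 1.23, and Dusp1 fell by 0.74 ± 0.20 (adjusted p = 0.033). The Dusp1 call was lost without the untreated array of 0.5 or 5 h and without the DMSO array of 0.5, 1 or 5 h (adjusted p = 0.066 to 0.093), with median centring (0.43) and in a fit to all 54 arrays (0.37). In the later window Dusp1 was still 2.26 above the start.

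**Figure D2:**
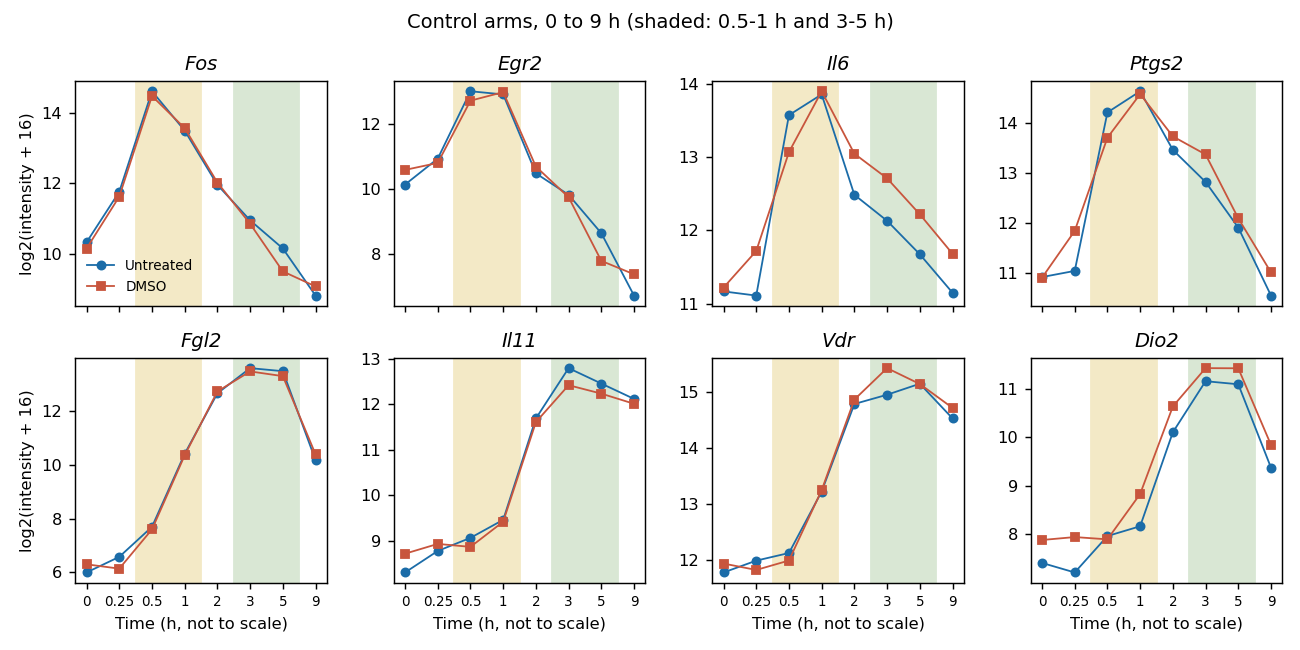
Levels (log2 of quantile-scaled intensity + 16, y axis) from 0 to 9 h (x axis, equal spacing per sampled time) of 4 genes that fell (Fos, Egr2, Il6, Ptgs2) and 4 that rose (Fgl2, Il11, Vdr, Dio2) in control cells, 1 point per array; circles are untreated, squares DMSO, and shading marks the 2 windows compared. Fos is highest at 0.5 h and the other 3 falling genes at 0.5 or 1 h, while the 4 rising genes reach their later level by 3 h.

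Several inflammatory genes fell over the same hours. Of 25 tested cytokine, chemokine and acute-phase genes 5 fell (20.0%, against 10.5% of all genes), among them Il6 and the chemokine gene Ccl20 (-1.25 ± 0.22). Another 3 rose (12.0%, against 9.74%), led by Il11. In this list 14 differences were above 0 and the median was 0.03. The count of falls was 2 in a fit to all 54 arrays. Of 11 prostaglandin genes 2 fell (18.2%, against 10.5% of all genes), Ptgs2 and the prostacyclin receptor gene Ptgir (-1.69 ± 0.27). Only 1 rose (9.09%, against 9.74%). Il6, the interleukin-6 gene, was at 13.57, 13.86, 13.07 and 13.90 early and at 12.13, 11.67, 12.71 and 12.22 later. All 4 later arrays were lower, though still 0.88 above the start (a fall of 1.42 ± 0.25, adjusted p = 0.0069). In a fit to all 54 arrays the Il6 call was lost (adjusted p = 0.18), and it was lost with 3 h alone (adjusted p = 0.069). Ptgs2, which encodes cyclooxygenase-2, was at 14.21, 14.63, 13.71 and 14.57 and then at 12.82, 11.91, 13.37 and 12.10, with the lower value of each arm at 5 h. It fell by 1.73 ± 0.35 (adjusted p = 0.012) and remained 1.37 above the start; with 3 h alone the adjusted p was 0.080. Of 23 tested NF-kB and STAT feedback genes 12 fell (52.2%, against 10.5% of all genes) and 3 rose (13.0%, against 9.74%). They included Tnfaip3, which encodes the NF-kB inhibitor A20 and was at 11.72, 12.14, 11.28 and 12.20 and then at 9.41, 9.19, 9.21 and 8.86. This 6.35-fold fall (adjusted p = 0.00042) took it below every early array. Birc3 fell by 1.81, Nfkbiz by 1.41 and Nfkbia, the gene of IkB-alpha, by 0.99 (adjusted p = 0.11 with median centring), while Socs2 rose by 2.82. The count of falls in this list was 8 with median centring, 6 with 3 h alone and 7 without the untreated array of 5 h or without the DMSO array of 0.5 h.

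Interferon response genes were lower too: 10 of 19 tested fell (52.6%, against 10.5% of all genes), none rose, and 18 of the 19 differences were below 0. Ifit2 was at 11.25, 10.88, 11.08 and 11.02 and then at 9.36, 8.96, 9.69 and 10.01 (a fall of 1.55 ± 0.19). Irf9, a subunit of the interferon-activated factor ISGF3, fell by 0.86 (adjusted p = 0.15 in the fit to all 54 arrays). The count of falls depended on the processing and arrays: it was 5 with median centring or with 3 h alone, and 1 in the fit to all 54 arrays. It was 6 without the untreated or the DMSO array of 0.5 h. Against the start the median member differed by -0.56.

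Ribosome biogenesis genes rose together. Of 46 tested genes for the nucleolus and ribosome assembly, 31 rose (67.4%, against 9.74% of all genes), none fell and 44 differences were above 0. The median difference was 0.74 after quantile scaling, 1.02 after median centring and 0.46 in the values as deposited, and 14 of the 46 rose in the last. With 3 h alone 20 rose. The mean level of the list was 11.25 and 11.30 in untreated and 11.35 and 11.38 in DMSO cells early, and 11.94, 12.12, 11.96 and 12.16 later. Both 5 h arrays were the highest. Rrp12, an export factor of ribosomal subunits, was at 9.90, 10.07, 10.20 and 10.11 and then at 11.28, 11.83, 11.20 and 11.81 (1.46 ± 0.17, adjusted p = 0.0013). The windows did not overlap, and the 5 h arrays were again above the 3 h arrays. Polr1b, the second largest subunit of RNA polymerase I, rose by 1.34 ± 0.13, Rrp9, a component of the snoRNP for rRNA processing, by 1.33 ± 0.17, and Nop56 and Ddx21 by 1.19 each. The abundant nucleolar proteins nucleolin (Ncl, 0.35 ± 0.11, adjusted p = 0.057) and nucleophosmin (Npm1, -0.12 on a probe at a mean level of 15.42) did not pass the test. A second, dimmer Npm1 probe differed by 1.15.

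Polyamine and nucleotide synthesis genes moved in the same direction: 11 of 29 tested rose (37.9%, against 9.74% of all genes) and none fell. Srm, which makes spermidine, was at 13.05, 13.51, 12.92 and 13.24 and then at 14.44, 14.97, 14.19 and 14.84. Its later arrays were all above its early ones, with 5 h the higher in each arm (1.43 ± 0.20, adjusted p = 0.0023). Amd1, the decarboxylase that supplies the aminopropyl group, rose by 1.21 ± 0.12. Ppat, the entry enzyme of purine synthesis, rose by 0.99 ± 0.11, but by 0.56 (adjusted p = 0.38) with the mean of its probes. Odc1, the entry enzyme of polyamine synthesis, was at 12.45, 12.54, 12.37 and 12.77 and then at 12.62, 13.21, 13.58 and 13.95. The untreated 3 h array lay below the highest early array, and the call (0.81 ± 0.21, adjusted p = 0.031) was lost without the untreated array of 0.5 or 5 h and without any single DMSO array (adjusted p = 0.059 to 0.089). For the list, 4 genes rose in the values as deposited, 5 with 3 h alone, and 7 without the untreated or without the DMSO array of 5 h. Of 27 aminoacyl-tRNA synthetase and translation initiation genes 5 rose (18.5%, against 9.74% of all genes), all of them initiation factors, including Eif2s1 (0.67) and Eif4e (0.62).

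**Figure D3:**
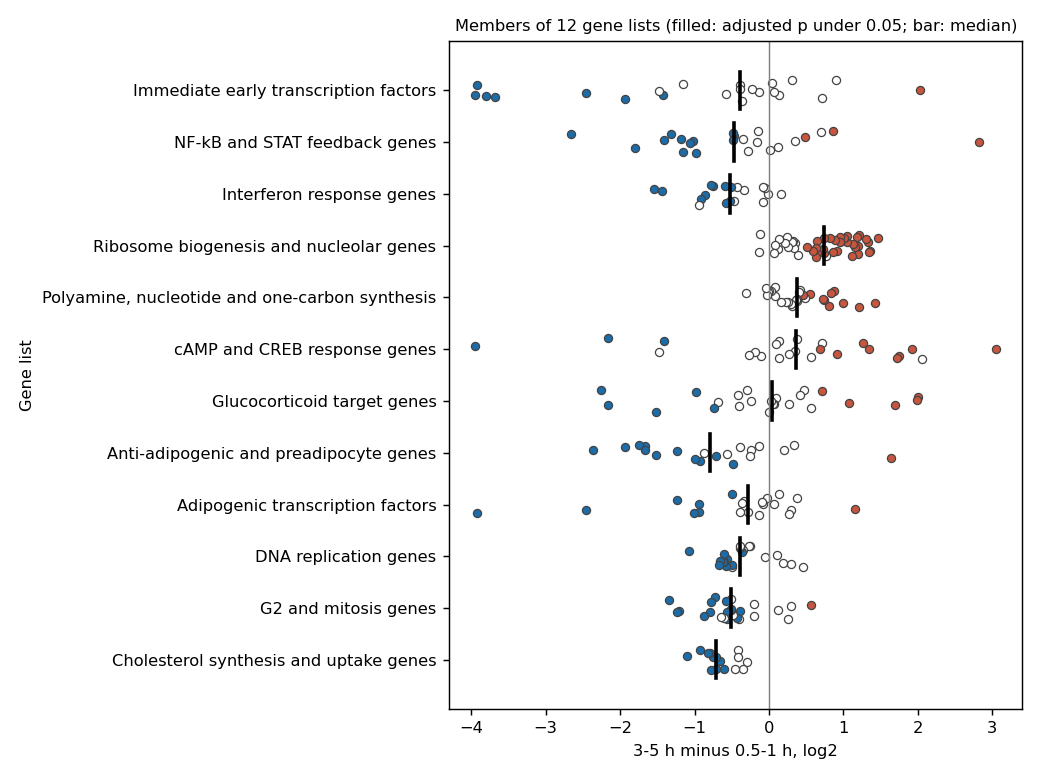
Difference between windows (3 to 5 h minus 0.5 to 1 h, log2, x axis) of every tested member of 12 gene lists in control 3T3-L1 cells; each point is a gene, filled where the limma adjusted p is under 0.05, and the vertical bar is the list's median. The ribosome biogenesis list has 31 filled points, all above 0, and the cholesterol list has 10, all below 0.

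Of 24 tested genes of the cAMP response 8 rose (33.3%) and 3 fell; in the values as deposited 5 rose. Next to Dio2, whose promoter above holds a cAMP response element, the cAMP-degrading phosphodiesterases Pde4d and Pde4b rose by 1.92 and 1.75, Rgs2, a G protein regulator, by 1.72, and the kinase gene Sik2 by 1.27. The Rgs2 call was lost with 3 h alone and with 5 h alone (adjusted p = 0.057 and 0.073). Crem, which also encodes the repressor ICER, was at 6.68, 7.15, 6.58 and 7.09 and then at 8.62, 8.15, 8.27 and 7.86. The windows were apart in both arms (1.35 ± 0.19, adjusted p = 0.0025), but in the values as deposited the adjusted p was 0.11. The 3 falls were Fosb, Cited2 and Gadd45a. Id2, an inhibitor of DNA binding that cAMP and BMP signals induce, was at 10.08, 12.74, 10.03 and 12.67 and then at 14.11, 13.12, 13.84 and 12.69. Its 0.5 h arrays lay far below its 1 h arrays, so the difference of 2.06 ± 0.71 did not pass the test (adjusted p = 0.078). Its adjusted p was 0.040 without the DMSO array of 1 h, 0.041 without the untreated array of 1 h, 0.023 in the fit to all 54 arrays and 4.8e-05 with median centring. Against the start Id2 was 5.49 higher, next to Fgl2 (7.22 higher) the largest difference among the genes named here.

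Glucocorticoid targets split, with 5 of 24 rising and 5 falling (20.8% each, against 9.74% and 10.5% of all genes). Fkbp5, a chaperone partner of the glucocorticoid receptor, was at 11.65, 11.57, 11.59 and 11.70 and then at 13.31, 13.67, 13.60 and 13.93. The early arrays differed by little from the start, and the rise was 2.00 ± 0.13 (adjusted p = 0.00018). Glul, glutamine synthetase, rose by 1.99 ± 0.21 and Ddit4, an inhibitor of mTORC1, by 1.07 ± 0.11. Pdk4, a kinase that shuts off pyruvate oxidation, fell by 2.25 ± 0.30, Sgk1 by 1.52 and Cited2 by 2.16. The difference of Tsc22d3 (GILZ) was 0.47 ± 0.21 and that of Per1 0.57 ± 0.41, and neither passed the test.

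Genes that restrain fat cell formation or mark preadipocytes, counted as 1 list, were mostly lower in the later window. Of 20 tested anti-adipogenic and preadipocyte genes 11 fell (55.0%, against 10.5% of all genes) and 1 rose (Foxc2, by 1.64). Klf7 was at 11.61, 12.51, 11.74 and 12.56 and then at 9.69, 10.40, 9.48 and 9.39 (5.15-fold lower, adjusted p = 0.0014). Klf2 was at 11.40, 10.64, 11.10 and 10.82 and then at 9.23, 9.21, 8.85 and 8.91, below all early arrays (3.84-fold lower). Gata3 fell by 1.75 ± 0.31. Pdgfra and Pdgfrb, receptors that mark adipocyte progenitors, fell by 1.67 ± 0.18 and 1.53 ± 0.17, and Runx1t1 by 1.67. Gata3 lost its call with 3 h alone (adjusted p = 0.064) and with 5 h alone (adjusted p = 0.051). The median member differed by -0.79 between the windows.

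Among 21 tested adipogenic transcription factors 7 fell (33.3%, against 10.5% of all genes), including Egr2 and Klf6, and 1 rose. Stat5b, which carries growth hormone signals, fell by 1.24 ± 0.25; its adjusted p with 3 h alone was 0.12. Falls in this list numbered 4 without the untreated array of 5 h, 4 without the DMSO array of 0.5 h and 3 without the DMSO array of 1 h. With 3 h alone they numbered 2. Klf5, the member that rose, was at 10.62, 12.03, 10.61 and 11.61 and then at 12.44, 12.30, 12.44 and 12.32. It was already near its later level at 1 h, and the call (1.16 ± 0.32, adjusted p = 0.036) was lost without the 0.5, 3 or 5 h array of either arm (adjusted p = 0.078 to 0.094) and in the values as deposited (0.15). Cebpb was at 15.41, 15.58, 15.31 and 15.45 and then at 15.75, 15.36, 15.45 and 15.11, overlapping throughout (-0.02 ± 0.13). Pparg was at 10.68, 10.77, 10.77 and 10.83 and then at 11.39, 11.02, 11.03 and 10.80; the DMSO 5 h array lay below the highest early array (0.30 ± 0.13, adjusted p = 0.15). Cebpa lay between 7.17 and 8.35 on the 8 arrays and did not pass the test (-0.10 ± 0.27). Of 17 effectors of mature fat cells 2 rose, the desaturase gene Scd1 (0.78, adjusted p = 0.16 in the fit to all 54 arrays) and the adiponectin receptor gene Adipor2 (0.65, adjusted p = 0.053 without the untreated array of 5 h), and 2 fell, while Fabp4, Lpl, Adipoq and Cd36 did not pass. Rises and falls were each 11.8% of this list, near the 9.74% and 10.5% of all genes.

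Cell division genes were lower in the later window. Of 25 tested G2 and mitosis genes 14 fell (56.0%, against 10.5% of all genes), with a median of -0.51. Only 1 rose (Bub3, by 0.56, adjusted p = 0.058 with median centring). Knstrn, a spindle protein, was at 11.29, 11.21, 11.57 and 11.38 and then at 9.78, 9.76, 10.25 and 10.26 (a fall of 2.55-fold, adjusted p = 0.00038). Bub1b, a spindle checkpoint kinase, fell by 1.24 ± 0.16 and Nusap1 by 1.20 ± 0.12. The count was 5 with median centring, 3 in the fit to all 54 arrays and 9 without the untreated or without the DMSO array of 0.5 h. Of 21 DNA replication genes 11 fell (52.4%, against 10.5% of all genes) and none rose. Among the falls were Uhrf1 (by 1.07 ± 0.10) and the helicase subunit gene Mcm5 (by 0.68 ± 0.13). The Mcm5 call was lost with median centring (adjusted p = 0.34) and in the fit to all 54 arrays (0.27). That count was 1 with median centring, 2 in the fit to all 54 arrays, and 6 or 7 without any single array of the DMSO arm or without the untreated array of 0.5 h or of 5 h. With 3 h alone it was 4. Cyclin D1 (Ccnd1) was between 14.55 and 14.77 early and between 14.81 and 15.13 later, above all early arrays, but did not pass the test (0.37 ± 0.12, adjusted p = 0.056). It passed with median centring (0.036) and without the DMSO array of 3 h (0.031). Ccne2, cyclin E2, rose by 0.71 ± 0.14 and Cdkn2b, the gene of the inhibitor p15, fell by 1.45 ± 0.12. Cdkn1a (p21) was at 14.36 to 14.65 throughout, apart from the DMSO 5 h array at 14.26.

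Genes that FoxO factors induce and insulin represses included 7 falls among 23 tested (30.4%, against 10.5% of all genes). They also included 2 rises (8.70%, against 9.74%). Of the 23 differences 9 were above 0, and the median was -0.22, or -0.04 with median centring. Pik3ip1, an inhibitor of PI3 kinase, was at 9.13, 8.12, 8.94 and 8.55 and then at 6.57, 7.12, 6.69 and 6.69 (3.78-fold lower, adjusted p = 0.0014). Gas1, a growth-arrest gene, fell by 1.52 ± 0.24 and Bcl6 by 1.41 ± 0.28. The Bcl6 adjusted p with 5 h alone was 0.074. Every one of 15 cholesterol synthesis and uptake genes was lower in the later window, and 10 fell (66.7%, against 10.5% of all genes). They included Mvd (by 1.10 ± 0.20) and Dhcr7 (by 0.79 ± 0.12). With median centring 2 of the 15 fell, and with 3 h alone 5. Their median difference was -0.71 after quantile scaling, -0.41 after median centring and -0.97 as deposited.

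Among 16 clock genes Per2 rose by 1.52 ± 0.15, Cry2 by 1.24 ± 0.16 and Clock by 0.55 (adjusted p = 0.14 with the mean of its probes), and Dbp, Per3 and Rora fell by 1.28, 1.14 and 0.76. The Rora adjusted p was 0.068 with median centring. Per2 was at 9.73, 10.03, 9.93 and 10.25 and then at 11.64, 11.71, 11.29 and 11.39. Arntl (Bmal1) was between 10.80 and 11.24 on all 8 arrays and did not pass the test. Per3 was read by a pair of probes that disagreed, the other differing by -0.13.

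Of 18 tested matrix protease and plasminogen genes 4 rose (22.2%) and 5 fell (27.8%). Of 23 collagens and matrix proteins 3 rose (13.0%), 1 fell (4.35%) and 19 did not pass the test. Over all genes these shares were 9.74% and 10.5%. The 5 protease falls were 3 with median centring, 2 in the fit to all 54 arrays and 3 without the 0.5 h array of either arm, the untreated array of 3 h or the DMSO array of 1 h; the 4 rises were 2 in that fit. Adamts5, an aggrecan-cleaving protease, was at 11.29, 11.18, 11.08 and 11.30 and then at 9.91, 8.20, 9.61 and 7.66. Both 5 h arrays were well below the 3 h arrays (5.16-fold lower over the window, adjusted p = 0.010), and of its 2 dim probes, one differed by 0.01 and the other by -1.41. Adamts9 rose by 1.32 ± 0.13, the urokinase receptor gene Plaur by 1.60 ± 0.19 and Tnc, which encodes tenascin-C, by 1.57 ± 0.22. Ccn1, a matricellular YAP target, fell by 2.41 ± 0.36, and Ccn2 was lower on all 4 later arrays without passing the test (-1.55 ± 0.53, adjusted p = 0.076). Its adjusted p was 0.0076 with median centring and 0.038 without the DMSO array of 3 h. Of the 25 tested Wnt and Notch pathway genes 1 fell (4%) and none rose.

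Setting the later window against the start separates genes that left their early level from genes that came back to it. Against 0 to 0.25 h, 1880 genes were higher (14.7%) and 2749 lower (21.5%); these shares were taken with the same later arrays and so are not independent of the changes above. Of the 1246 rises 1132 were also higher than the start and none was lower. Of the 1348 falls 1268 were also lower than the start, 73 did not pass that test and 7 were higher than it. Dusp1, Il6 and Ptgs2 were among those that remained above the start, by 2.26, 0.88 and 1.37. Fosb was 0.14 above its starting level without passing the test, while Fos and Egr2 differed from theirs by -0.60 and -1.62 and passed it. This starting level averages 0 and 0.25 h and is not the level at 0 h alone. The mean of the immediate early list was 9.94 (untreated) and 9.84 (DMSO) at 0 h, and 10.28 and 10.09 at 0.25 h. Zfp467, a zinc finger gene whose product promotes fat cell formation, was lower at 1 h than at 0.5 h in both arms: it was at 10.15 at the start, 9.93, 8.96, 9.96 and 9.21 in the early window, and 6.66 to 6.91 later.

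Within the later window 157 genes were higher at 5 h than at 3 h (1.23%) and 190 lower (1.49%), in a fit to 16 control arrays from 0 to 9 h. With median centring 11 genes were called in all and in the values as deposited none (1075 at an unadjusted p under 0.05), and 10 without the untreated array of 3 h, 30 without that of 5 h, 43 without the DMSO array of 3 h and 11 without that of 5 h. Egr1 fell further, from 13.17 to 10.87 in untreated and from 13.43 to 11.31 in DMSO cells (a difference of -2.21, adjusted p = 0.00095). Krt15, a keratin gene, went from 7.85 to 9.43 and from 7.77 to 9.56 (1.68 higher, adjusted p = 0.00095). Rasgrp3, an activator of RAS proteins, went from 8.27 to 6.52 and from 8.42 to 6.48 (a difference of -1.84, adjusted p = 0.0031). Prorp, which encodes a mitochondrial ribonuclease, stood at 9.42 to 9.58 early, was at 8.42 and 8.28 at 3 h and at 9.45 and 9.31 at 5 h. Of the 1246 rises 38 were higher at 5 h than at 3 h and 11 lower; of the 1348 falls 75 were lower and 12 higher.

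The change did not differ detectably between the arms. No gene passed the test of DMSO minus untreated change in limma (0% of 12792), with 1231 genes (9.62%) at an unadjusted p under 0.05. The smallest p belonged to Ndp, Pianp and Fbxo32, whose changes differed by 1.72 ± 0.19, 1.59 ± 0.19 and 2.05 ± 0.27 (adjusted p = 0.41, 0.41 and 0.49). Fbxo32, which encodes the ubiquitin ligase atrogin-1, was at 11.10 and 11.16 and then 10.07 and 9.52 in untreated cells, but at 10.91 and 10.82 and then 11.60 and 11.57 in DMSO. With single arrays left out, 0 to 2 genes passed. A p that misses the threshold does not show that the arms changed alike. Arrays of the arms were not matched by hour, so shared changes between the hours of a window counted as error here.

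Prieurianin arrays of the same times moved mostly in the same direction. Of the 1246 control rises 1232 were above 0 in the prieurianin arm, with a median change of 0.64 against 0.70 in the controls, and of the 1348 falls 1329 were below 0, with a median of -0.66 against -0.69. The control medians describe genes chosen on the control arrays. The prieurianin change was lower than the control change for 5 genes (0.0391%), and higher for none, with 361 genes (2.82%) at an unadjusted p under 0.05 in limma. Those 5 were Clns1a, Mast2, Ppif, Ripk2 and Fam184b, which stood at 4.46 to 6.45 on the prieurianin arrays of 3 and 5 h. A second Clns1a probe read 8.62 and 8.76 and then 8.92 and 9.02 on the same arrays. The low Clns1a and Mast2 readings recurred on single arrays of other times, and the part of single-probe drops in these 5 differences was not tested. Without the prieurianin array of 3 h 12 genes passed. Among the large falls, Ankrd1, a muscle-type ankyrin repeat gene, was at 10.29, 11.04, 10.08 and 10.51 and then at 8.13, 9.05, 8.11 and 6.91 in the controls. In prieurianin it was at 9.96 and 10.76 and then at 10.28 and 10.39, so it did not drop there. The difference of changes, 2.40 ± 0.57, did not pass the limma test (adjusted p = 0.91), in which arrays were not matched by hour either. Btg2 fell by 3.79 in controls and by 2.05 with prieurianin, and Klf7 by 2.36 and by 0.73, also without passing (adjusted p = 1.00 for both). Fgl2, in contrast, reached 13.57 and 13.75 in prieurianin at 3 and 5 h, Il11 12.05 and 12.01, and Vdr 15.45 and 15.21.

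**Figure D4:**
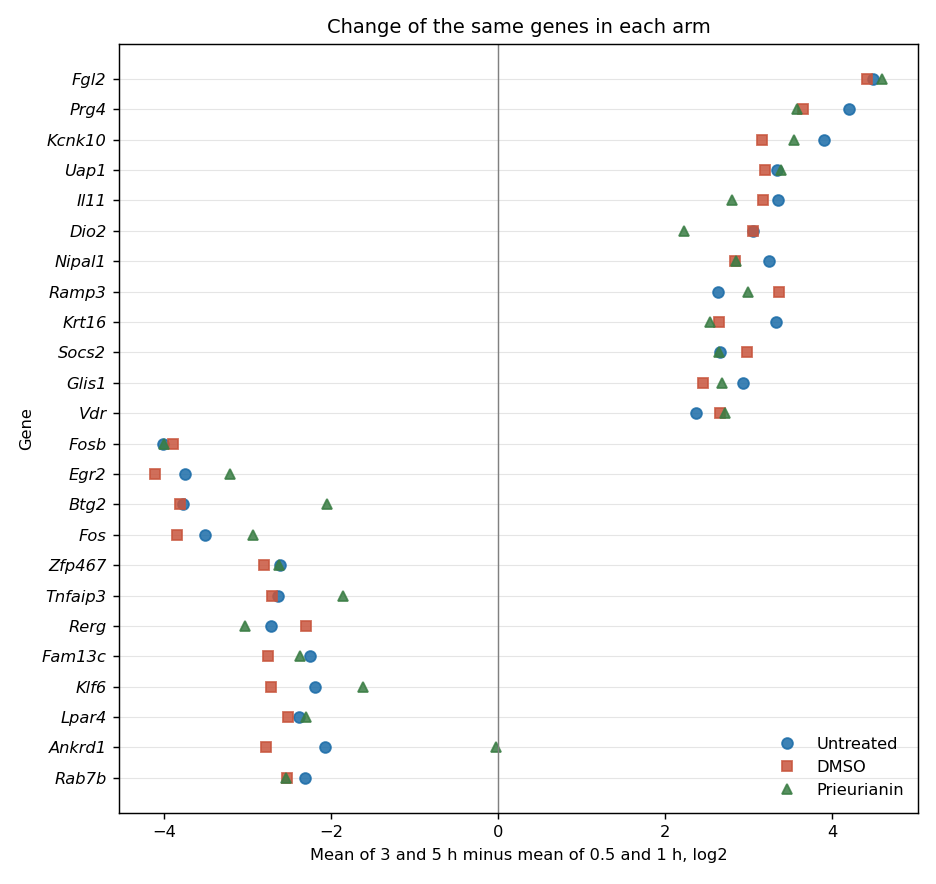
Change from 0.5-1 h to 3-5 h (log2, x axis) of the same 24 genes in each arm; circles are untreated, squares DMSO and triangles prieurianin, each the mean of 2 arrays minus the mean of 2 arrays, with no error bar at this size. Untreated and DMSO points have the same sign for all 24 genes because the genes were chosen for windows that do not overlap. The prieurianin point of Ankrd1 lies at -0.03.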

How the data were processed

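RNA of 54 samples was labelled with Cy5 and hybridised singly to Phalanx Mouse OneArray slides, per the labels' protocols. The authors deposited 1 intensity per probe and array. That these values are linear and unscaled was judged from the values, which ran from -83 to 65497 with unequal array medians; background correction and scaling are not given in the sources used here. In the deposited table, 21020 of 29922 probes had 1 gene symbol in the platform annotation, none had several, and 8902 were unnamed and left out of the tests. Against RefSeq symbols, 17558 were current, 3410 were updated and 52 were kept as annotated.

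Intensities were quantile scaled over the 54 arrays, floored at 0 and expressed as log2(value + 16). For each of 16637 genes, of which 3566 had several probes, the probe with the highest mean was used. Genes with a mean log2 level above 6.07, the 25th percentile of probes, were tested (12792). Tests used limma 3.58.1 (lmFit, eBayes) in R 4.3.3 with the arm as a block, Benjamini-Hochberg adjustment and a threshold of 0.05. A separate run of limma on simulated arrays used independent noise without a time trend inside a window, so it does not cover such trends. The number of arrays limits the precision. A probe within 50 units of an array's highest value was taken as saturated.

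Genes named include all of the 12 largest non-overlapping rises and falls, leaving out genes saturated on every array of a window. Others were drawn from the 4 largest differences in each list, 27 chosen genes and the 6 smallest p-values of each further test. Not every gene of these latter sets is named, and some lists are not reported. Further genes were named after their values were seen. Members and lists were chosen with earlier results of these data known. Alternatives changed the scaling, pseudocount (64), filter, probe rule, arm term and arrays used. Promoters came from RefSeq (GRCm38.p6).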

Additional observations from a re-analysis of the deposited data

Results flagged for a closer look

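In the prieurianin comparison, 5 genes had a change that differed from that of the control arms in the limma interaction test. The differences of changes were -7.50 for Clns1a (adjusted p = 9.9e-08), -4.25 for Ripk2 (adjusted p = 3.5e-06), -5.46 for Mast2 (adjusted p = 0.00014), -5.33 for Ppif (adjusted p = 0.0016) and -1.96 for Fam184b (adjusted p = 0.031). Clns1a, which encodes the splicing-complex assembly factor pICln, was at 12.70 to 13.25 on the 8 control arrays and at 5.23 and 5.48 on the prieurianin arrays of 3 and 5 h. Its other probe stood at 8.92 and 9.02 on those arrays, against a median of 8.97 over the 54 arrays. The probes of Clns1a, Mast2 and Fam184b were below the level filter on 6, 5 and 4 of the 54 arrays, and those of Ppif, the cyclophilin D gene, and Ripk2, a kinase of NOD signalling, on 2 each.

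Single arrays stood apart from the other 3 of their window in 11 of 274 sets of 4 control arrays checked by Dixon's test at the 95% level, where chance alone gives about 1 in 20. In the later window, the untreated array of 3 h was the lowest for Cdkn2b (12.35), Mcm5 (12.07), Uhrf1 (10.91) and Ppif (10.75). The DMSO array of 3 h was the lowest for Ccnd1 (14.81) and the highest for Birc3 (9.37), and the untreated array of 5 h was the highest for Pde4d (10.39). In the early window, the DMSO array of 1 h was the highest for Gclc (9.55) and the lowest for Egr1 (15.98, in a window where the probe was saturated throughout). Ripk2 was lowest on the DMSO array of 0.5 h (9.80) and Krt13, a keratin gene, on the untreated array of 0.5 h (8.94).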

How the results depend on the processing

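The 1246 rises and 1348 falls became 1010 and 571 with median centring, 214 and 2956 in the values as deposited, 14 and 5 in the untreated arm alone, 291 and 334 in the DMSO arm alone, and 466 and 561 with 3 h alone. The arms taken alone hold fewer arrays; the cause of the other shifts was not tested. With each array left out in turn they ranged from 762 to 1167 and from 793 to 1417. Both counts stayed within 1.5 times with a pseudocount of 64, no filter, the mean of all probes, no arm term, all 54 arrays and 5 h alone. The arm difference gave 1 gene with a pseudocount of 64, 1 with no filter and 0 to 2 with an array left out. The prieurianin difference gave 4 to 12 with an array left out. The 347 genes that differed between 5 and 3 h became 11 with median centring, 0 as deposited, 188 with no filter and 10 to 43 with an array left out. Against the start, 1880 higher genes became 944 with median centring and 511 as deposited, and 2749 lower genes became 1495 with median centring.

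Of 137 named genes 110 passed the test, and 105 of these passed with every single array left out; the exceptions were Adipor2, Alpl, Dusp1, Klf5 and Odc1. The untreated arm alone lost 97 of the 110 calls, the DMSO arm alone 47 and 3 h alone 20. Those 20 were Adipor2, Alpl, Bub3, Ccne2, Clock, Dusp1, Eif2s1, Gata3, Il6, Klf5, Nfkbia, Odc1, Per3, Ptgs2, Ramp3, Rgs2, Scd1, Sgk1, Stat5b and Zfp36. In the values as deposited 11 were lost, among them Adipor2, Bub3, Ccne2, Clock, Eif2s1, Eif4e, Ppif and Scd1. The sign turned in 46 of 2603 values. Of these, 1 belonged to a gene that had passed the test (Alpl, -0.24 as deposited), and the others to genes that had not, such as Fbxo32, which passed with a difference of 0.72 in the DMSO arm alone. No paired analysis was possible because a window's arrays of 1 arm differ in time and carry no shared replicate number; the arm served as the block. Dim genes near the filter and saturated genes such as Egr1 limit what the arrays resolve.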

Other observations

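Ccl8, a chemokine gene, took values near the bottom of the scale or near 12 on single arrays. In the early window it was at 12.21, 4.39, 4.14 and 12.22, and in the later one at 12.46, 12.27, 12.51 and 12.32. The difference of 4.15 ± 1.97 did not pass the test in limma (adjusted p = 0.18). On the prieurianin arrays of 3 and 5 h it was at 4.72 and 12.06.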
